A study of Arabidopsis thaliana with 4 samples.

Results

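The genes described here are those of the plastid genome of *Arabidopsis thaliana*, chosen as every row whose locus identifier begins with ATCG, whatever its value. There were 125 such genes among 33544 in the tables. By the gene symbols, 37 encode tRNAs, 87 encode proteins of known complexes or plastid reading frames, and 1 (ATCG00800) carried no symbol. None of the 125 carried the symbol of a plastid rRNA gene, so plastid rRNAs are not part of what follows. Whole seedlings of 2 genotypes were collected at an age of 14 days, grown in long days without further treatment. One genotype was wild-type Col-0. The other, *ect2*, carries a T-DNA insertion in *ECT2* in the Col-0 background. Each had 2 libraries. The ECT2 protein is a reader of N6-methyladenosine, a methyl mark on RNA, through its YTH domain. The labels name neither the insertion allele nor the number of plants pooled, nor whether replicates were grown separately, so p-values measure the spread between these libraries.

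The plastid genome codes for the core of both photosystems, for most of the cytochrome b6f complex and the ATP synthase, for the large subunit of Rubisco, for the NDH complex of cyclic electron flow, and for part of the plastid's own ribosome and RNA polymerase. The remaining subunits come from nuclear genes and are imported. Plastid genes are largely transcribed as operons, and the long transcripts are then cut, trimmed and spliced. Unlike a nuclear mRNA, a plastid mRNA has no stable poly(A) tail, and in plastids the addition of A residues marks RNA for decay. These libraries were made from RNA bound to oligo(dT) beads, so a value here is the level in that fraction and not in total plastid RNA.

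All values are FPKM (fragment counts scaled by transcript length and library size), and values given in pairs are for replicate 1 and then replicate 2. *ECT2* itself (AT3G13460) was listed at 137 and 76.7 FPKM (wild type) and at 9.07 and 8.58 FPKM (*ect2*), which is the order the labels give. Both leaf and root transcripts were present, as in a whole seedling: the 4 leaf genes summed to between 46444 and 53836 FPKM in a library and the 5 root genes to between 1333 and 1655 FPKM. Most of the root sum was 1 gene, *PYK10*, at 1206 to 1559 FPKM. The other root genes, *CASP1*, *SHR*, *SCR* and *MYB36*, were listed at 2.56 to 104 FPKM. Reads per library are not given. From the lowest values, the depth of Col-0 replicate 1, *ect2* replicate 1 and *ect2* replicate 2 was 1.45, 1.38 and 0.973 times that of Col-0 replicate 2. This is a rough estimate, as between 25.5% and 27.8% of the genes it used lay within 0.05 of it on the log2 scale. In whole-seedling RNA, fewer green cells and less plastid RNA per cell cannot be told apart.

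Among protein-coding genes, the highest plastid values belonged to very short genes for membrane subunits of a single helix. The sequences below are those of the 3 highest protein-coding genes (*psbM*, *psaJ* and *petN*) and of 3 short photosystem II genes. These 3 (*psbT*, *psbL* and *psbF*) were lowest in Col-0 replicate 1. *psbM*, *psbJ* and *psbN*, also short, were lowest there too. A 40-base stretch of *rpoA* is shown for contrast, as it holds the longest A run. Each runs 5′ to 3′ on the coding strand of the RefSeq plastid sequence of TAIR10.1, whole from start to stop codon except for *rpoA*. Capitals mark the longest uninterrupted run of A, shown because oligo(dT) binds A-rich RNA.
psbM, Pltd:28707-28811, minus strand: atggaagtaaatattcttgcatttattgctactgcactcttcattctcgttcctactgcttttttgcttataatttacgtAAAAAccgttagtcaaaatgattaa
psaJ, Pltd:66929-67063, plus strand: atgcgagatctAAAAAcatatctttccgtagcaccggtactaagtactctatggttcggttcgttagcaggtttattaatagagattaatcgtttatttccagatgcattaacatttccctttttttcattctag
petN, Pltd:28089-28178, plus strand: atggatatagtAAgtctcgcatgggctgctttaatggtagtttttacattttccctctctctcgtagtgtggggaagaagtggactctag
psbT, Pltd:74082-74183, plus strand: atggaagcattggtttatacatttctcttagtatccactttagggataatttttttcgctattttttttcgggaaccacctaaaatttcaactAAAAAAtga
psbL, Pltd:63804-63920, minus strand: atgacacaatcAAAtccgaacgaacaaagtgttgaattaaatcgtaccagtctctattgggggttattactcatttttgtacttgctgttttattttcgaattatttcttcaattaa
psbF, Pltd:63942-64061, minus strand: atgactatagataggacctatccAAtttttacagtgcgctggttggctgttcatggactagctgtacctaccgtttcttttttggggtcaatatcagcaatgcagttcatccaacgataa
rpoA, Pltd:78082-78121, minus strand: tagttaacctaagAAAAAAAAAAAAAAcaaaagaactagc

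The highest protein-coding genes were not the ones with long runs of A inside the gene. The longest run measured 5 bases in *psbM*, 5 in *psaJ* and 2 in *petN*, against a median of 6 over the 70 protein-coding genes with a single position, introns included. The longest of all, 14 bases, lies in *rpoA*, whose mean level was 61.6 FPKM. Across these 70 genes the Spearman correlation of the longest run with the mean level was -0.64. Gene length itself had a correlation of -0.68 with the level, and long genes have more room for a run, so the 2 measures share length. The percentage of A in the gene had a correlation of -0.42. Flanking sequence and added tails were not examined, and binding of these RNAs to oligo(dT) was not tested.

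*psbM* (ATCG00220), which encodes a small subunit at the dimer interface of photosystem II, dominated the plastid values. It was listed at 49303 and 189645 FPKM in wild-type seedlings, while *ect2* had 276386 and 129780 FPKM. It ranked second among all genes of every library, behind the nuclear locus AT2G01021, and made up 35.8%, 64.5%, 75.5% and 65.0% of the plastid sum in these libraries. The 2 genotypes overlap, and the highest library was 5.61 times the lowest. *psaJ* (ATCG00630), for a small photosystem I subunit, was next at 23084 and 14723 FPKM in the wild type, against 10758 and 11913 FPKM in the mutant, and *petN* (ATCG00210), for a small cytochrome b6f subunit, stood at 8299, 9108, 9760 and 3587 FPKM.

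Level followed coding length in each library. Over the 80 protein-coding genes with a known coding length, the Spearman correlation with FPKM lay between -0.70 and -0.66 in the 4 libraries. The 13 genes under 150 bases had a median mean level of 2101 FPKM, the 28 genes from 150 to under 500 bases one of 149 FPKM, and the 39 genes of 500 bases or more one of 33.0 FPKM. Short genes also varied more between libraries: the highest library was a median of 3.59 times the lowest below 150 bases, 2.14 times in the middle class and 2.05 times from 500 bases. FPKM divides by length, and a gene shorter than a sequenced fragment has little effective length, so levels are best compared among genes of like length. The part of this division in the length trend was not tested. Among genes of 500 bases or more, *psbA* and *rbcL* were highest, at mean levels of 2061 and 651 FPKM, and *rpoC2* and both copies of *ycf2* lowest.

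**Figure D1:**
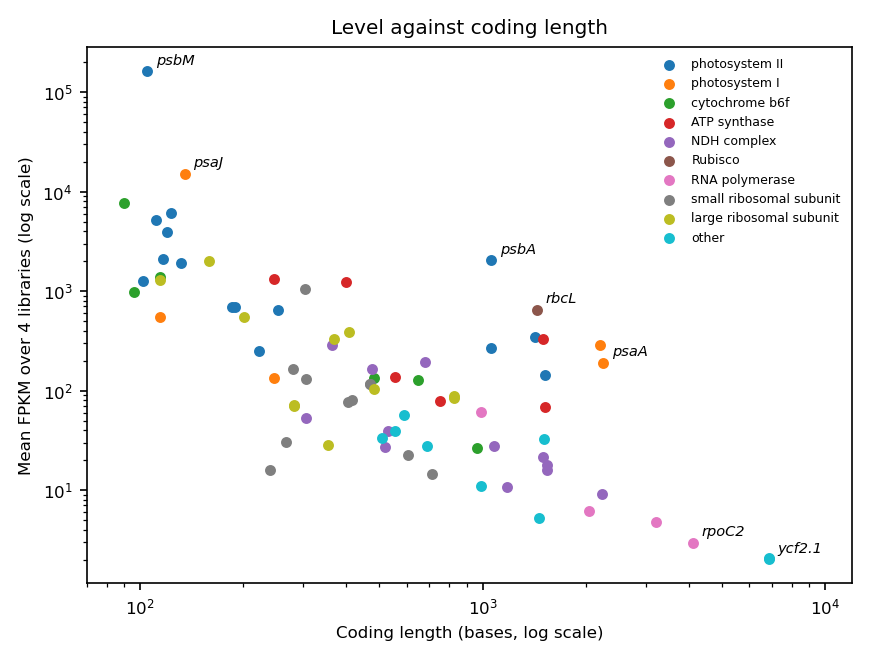
Mean FPKM over the 4 libraries (log axis) against coding length in bases (log axis) for the 80 protein-coding plastid genes with a known length, each point a gene coloured by role. Levels fall with length from *psbM* at 161278 FPKM to the copies of *ycf2* near 2 FPKM, with *psbA* and *rbcL* above other genes of their length.

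Plastid genes differed widely between libraries of the same genotype. Of the 88 genes other than those for tRNAs, 76 were higher in Col-0 replicate 2 than in Col-0 replicate 1, with a median log2 ratio of 0.83. Of all tested genes listed above 0 in every library, 54.5% were higher in that library, with a median of 0.062. In the mutant, 73 of the 88 were lower in *ect2* replicate 2 than in *ect2* replicate 1, with a median log2 ratio of -0.38, against 56.4% and -0.060 for all genes. The highest value lay in Col-0 replicate 2 for 62 of 88, a share of 70.5% where 26.1% of all genes had theirs there. The lowest lay in Col-0 replicate 1 for 42 (47.7%, against 36.2% of all genes) and in *ect2* replicate 2 for 39 (44.3%, against 23.1%). So each genotype had a library with high and a library with low plastid values. The median level of the tested plastid genes was 92.1 and 162 FPKM (wild type) and at 137 and 103 FPKM (*ect2*). The part of sequencing depth in this pattern was not tested.

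**Figure D2:**
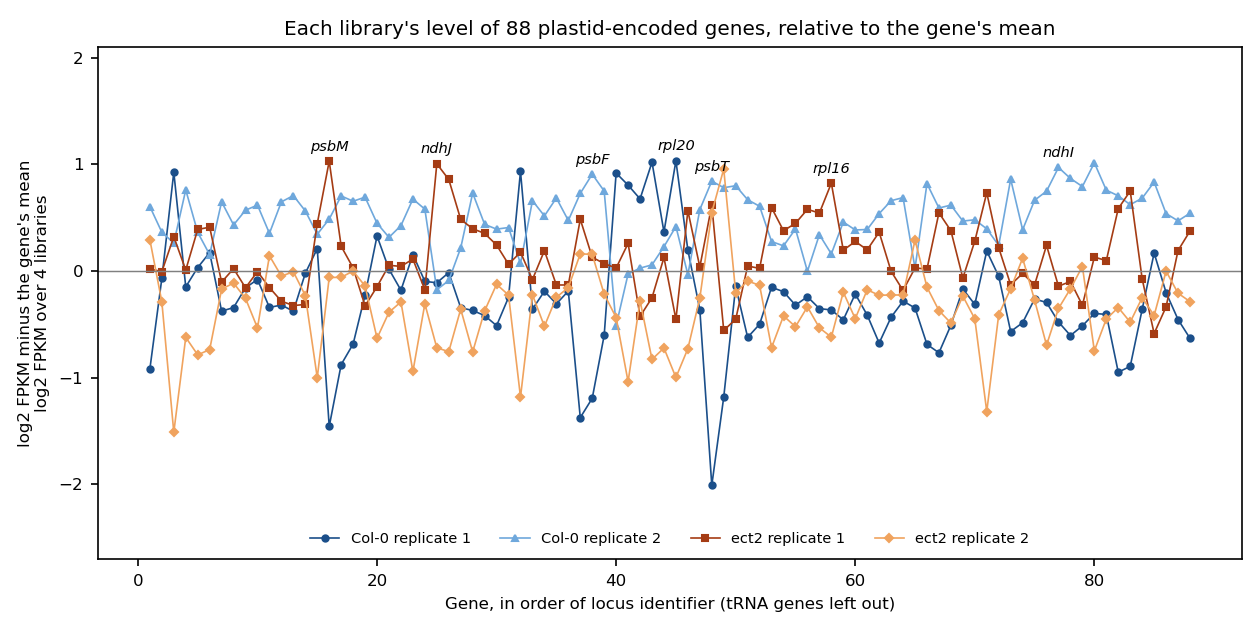
Log2 FPKM of each library minus the gene's mean log2 FPKM over the 4 libraries, for the 88 plastid genes other than tRNA genes, in order of locus identifier. Col-0 replicate 2 lies highest for 62 genes; Col-0 replicate 1 lies far below the others at *psbM*, *psbF* and *psbT* and above them from *petL* to *rpl33* and at *rpl20*.

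The share of the summed FPKM that came from the plastid genome was 7.80% and 13.8% in Col-0 and 19.5% and 9.49% in *ect2*. The means were 10.8% ± 4.21 and 14.5% ± 7.08 (SD, n = 2 per genotype), and the difference of 3.72 percentage points was within the spread of the libraries (exact permutation test, two-sided, p = 0.667; 2 against 2 libraries cannot go below 0.333). On the plastid side, the share rested on 1 gene. Without *psbM* it was 5.15%, 5.36%, 5.61% and 3.54%, and the difference turned to -0.68 percentage points (exact permutation test, p = 1). It also turned negative, to -1.29 percentage points, without *ect2* replicate 1. The total rested in part on 1 nuclear locus, AT2G01021, which held between 23.8% and 36.8% of it in a library. With that locus left out of the total, the plastid share was between 10.8% and 25.6% in the 4 libraries. The difference was then 4.65 percentage points (exact permutation test, p = 0.667). The size of the share therefore depends on this locus as well.

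Between genotypes, no plastid gene passed the threshold. Of the 125 genes, 92 reached 1 FPKM in at least 2 libraries and were tested on log2(FPKM + 1) among 19308 genes. Limma called 0 of the 92 at an adjusted p below 0.05, the lowest adjusted p being 0.842, while 0.0259% of all genes were called. *ECT2* itself, with a log2 difference of -3.40 ± 0.33 (SE), did not pass either (limma, adjusted p = 0.153). A gene that was not called may therefore still differ. At an unadjusted p below 0.05, 4 were lower in *ect2* (4.35%, against 2.32% of all tested genes) and 1 was higher (1.09%, against 2.54%). Both *ect2* libraries lay below both Col-0 libraries for 11 of 92 (12.0%), less than the 20.2% of all tested genes. They lay above for 2 (2.17%, against 17.5%), and 79 overlapped.

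The differences were negative for 66 of the 92, or 71.7%, against 51.2% of all tested genes, with a median log2 difference of -0.23 against -0.0096. That direction depended on the libraries. The median was -0.58 without Col-0 replicate 1 (7 positive, 85 negative) and 0.19 without Col-0 replicate 2 (64 positive, 28 negative). It was -0.39 without *ect2* replicate 1 and -0.012 without *ect2* replicate 2. Each of these fits has a single library in 1 genotype, which is assumed to vary like the others. Limma then called 1 plastid gene without Col-0 replicate 1 and 4 without Col-0 replicate 2, and over all genes 11 and 520. The 4 were *psbL*, *psbF* and *psbT*, positive, and *rpl20*, negative.

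**Figure D3:**
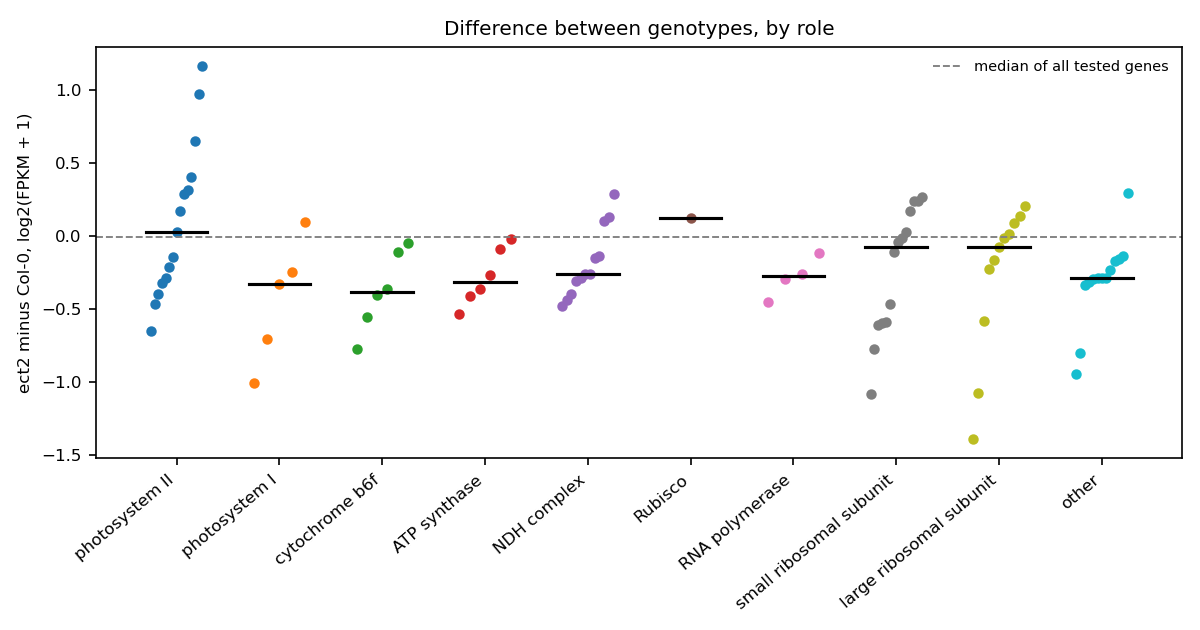
Difference of ect2 minus Col-0 on the log2(FPKM + 1) scale for each tested plastid gene (points), by role, with the median of each role (black bars) and the median of all tested genes (dashed line). The tRNA genes and the gene without symbol are not drawn. No point passed the threshold, and every role but photosystem II and Rubisco has a median below the dashed line.

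Photosystem II has 15 genes here, among them the reaction centre proteins *psbA* (D1) and *psbD* (D2), the core antenna proteins *psbB* and *psbC*, and small subunits. *psbA* (ATCG00020; Pltd:383-1444, minus strand) was listed at 1018 and 2922 FPKM in wild-type seedlings, while *ect2* had 1950 and 2355 FPKM. Col-0 replicate 1 was the lowest of the 4 and Col-0 replicate 2 the highest, so the genotypes overlap. The log2 difference was 0.31 ± 0.53 (SE; limma, adjusted p = 0.917). Without Col-0 replicate 1 the difference was -0.45. *psbD*, at 136, 406, 293 and 239 FPKM, was likewise lowest and highest in the Col-0 libraries. *psbT* (ATCG00690), for a small subunit near the dimer interface, had the largest positive difference of the group. It was listed at 252 and 1816 FPKM in the wild type, against 1554 and 1480 FPKM in the mutant, so that 1 library, Col-0 replicate 1, stood apart from the other 3. The log2 difference of 1.16 ± 0.99 (SE; limma, adjusted p = 0.851) became -0.26 without that library.

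In the same library the cytochrome b559 gene *psbF* (1509 FPKM, beside 6473, 3773 and 3844 FPKM) and the small subunit gene *psbL* (711 FPKM, beside 3052, 2580 and 2061 FPKM) were low as well. Of the 15 genes, 14 were higher in Col-0 replicate 2 than in replicate 1, with a median log2 ratio of 1.35, the widest of the roles with more than 1 gene. The largest negative difference was in *psbH* (ATCG00710), for a small phosphorylated subunit, at 210 and 405 FPKM (wild type) and at 170 and 202 FPKM (*ect2*). The mutant values were all lower (log2 difference -0.65 ± 0.36 SE; limma, adjusted p = 0.842). The difference was -0.18 without Col-0 replicate 2 and -1.12 without Col-0 replicate 1. *psbN*, which aids assembly of the reaction centre, lies on the opposite strand between *psbT* and *psbH* and was listed at 705, 2747, 1087 and 3101 FPKM. The sources used here do not say that counting used strand, so reads of *psbN* and of RNA from the other strand cannot be told apart.

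**Figure D4:**
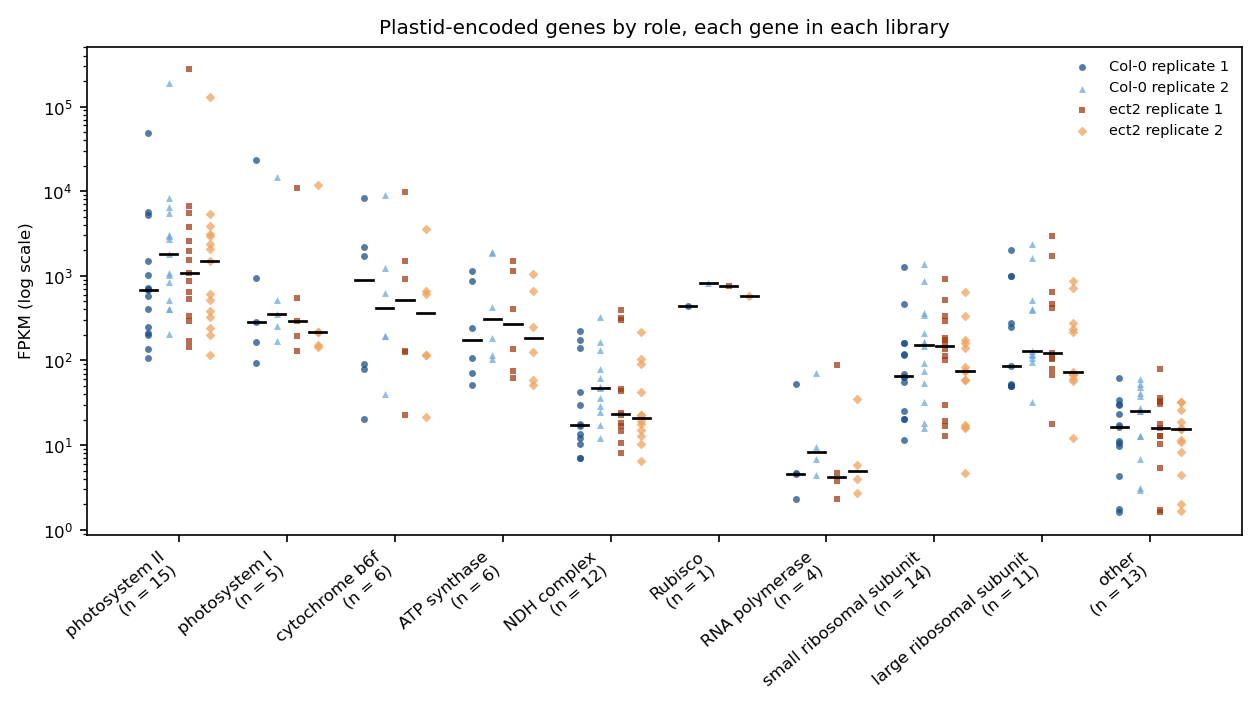
FPKM (log axis) of each plastid gene in each library, by role, with the median of the role in that library as a black bar and the number of genes in parentheses. The medians of photosystem II run from 673 FPKM in Col-0 replicate 1 to 1816 FPKM in Col-0 replicate 2, with both ect2 libraries between them.

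Photosystem I had 5 genes, 4 of them with negative differences. *psaA* (ATCG00350) and *psaB* (ATCG00340) encode the reaction centre pair. *psaA* was listed at 166 and 252 FPKM in wild-type seedlings, while *ect2* had 193 and 153 FPKM, and *psaB* at 284, 350, 292 and 215 FPKM. *psaC* (ATCG01060), for the iron-sulphur subunit, was listed at 93.9, 172, 129 and 143 FPKM. In these genes the genotypes overlap. *psaJ*, given above, had no overlap, with means of 18903 ± 5912 FPKM for the wild type and 11336 ± 817 FPKM for the mutant (SD, n = 2 per genotype; log2 difference -0.70 ± 0.31 SE; limma, adjusted p = 0.842). *psaI* (ATCG00510), another small subunit, had the largest negative difference, -1.0 ± 0.55 (SE; limma, adjusted p = 0.842), at 936 and 514 FPKM in the wild type, against 553 and 216 FPKM in the mutant. It was -0.33 without *ect2* replicate 2 and -1.68 without *ect2* replicate 1, and that of *psaJ* was -0.38 and -1.03 without Col-0 replicate 1 and 2. For these short genes Col-0 replicate 1 was the highest library, unlike for *psaA*, *psaB* and *psaC*.

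The 6 genes of the cytochrome b6f complex, which links the photosystems, and the 6 of the ATP synthase had negative differences without exception, with medians of -0.39 and -0.32, and 0 passed. The differences nearest to 0 were -0.048 in *petB* and -0.020 in *atpB*. For 3 genes of each complex Col-0 replicate 1 was the lowest library, so their negative sign rests on Col-0 replicate 2. The large subunits *petA* (cytochrome f; 20.3, 40.4, 23.0 and 21.2 FPKM), *petB* (cytochrome b6; 79.3, 194, 126 and 114 FPKM) and *petD* (subunit IV; 90.2, 194, 130 and 116 FPKM) were highest in Col-0 replicate 2. The short subunit genes *petL* and *petG* were highest in Col-0 replicate 1. *petG* (ATCG00600) was listed at 2202 and 1237 FPKM (wild type) and at 1508 and 614 FPKM (*ect2*), the largest negative difference of the complex at -0.78 ± 0.53 (SE; limma, adjusted p = 0.844). It was -0.13 without *ect2* replicate 2 and -1.42 without *ect2* replicate 1. Among the ATP synthase genes *atpH* (ATCG00140), for the ring-forming subunit c, was highest, at 1140 and 1887 FPKM in wild-type seedlings, while *ect2* had 1140 and 1064 FPKM. Both mutant libraries were below, but the upper one was within 0.1 FPKM of Col-0 replicate 1. *atpI* (subunit a) had the largest difference, -0.53 ± 0.33 (SE; limma, adjusted p = 0.842), with 70.9 and 115 FPKM in the wild type, against 74.7 and 51.8 FPKM in the mutant. With 1 library left out it was between -0.88 (without Col-0 replicate 1) and -0.19 (without Col-0 replicate 2), and that of *atpH* between -0.78 and -0.050 without the same libraries. *atpB* and *atpE*, for subunits beta and epsilon, overlap by 4 bases in the annotation, and both were highest in Col-0 replicate 2, with *atpB* at 239, 432, 407 and 246 FPKM and *atpE* at 870, 1866, 1480 and 665 FPKM. *rbcL* (ATCG00490), for the large subunit of Rubisco, was listed at 444 and 831 FPKM (wild type) and at 749 and 580 FPKM (*ect2*). The mutant values lie between the wild-type values, and the log2 difference was 0.12 ± 0.36 (SE; limma, adjusted p = 0.957).

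The NDH complex has 12 entries: the single-copy genes, both copies of *ndhB*, and the gene that the tables call PSBG, a former name of *ndhK*. All 12 overlapped between genotypes, with 9 negative differences and a median of -0.26. The highest library differed by place for 1 group of neighbours. *ndhJ*, *ndhK* and *ndhC*, neighbours on the minus strand, were highest in *ect2* replicate 1: *ndhJ* (ATCG00420) was listed at 139 and 133 FPKM in wild-type seedlings, while *ect2* had 301 and 91.1 FPKM. Its values within the mutant differed 3.31-fold, and both extremes lay there. The log2 difference was 0.28 ± 0.59 (SE; limma, adjusted p = 0.935), the largest positive one of the complex, and *ndhC* (ATCG00440), the highest gene, was listed at 220, 325, 391 and 218 FPKM. The other 9 entries were highest in Col-0 replicate 2: *ndhH*, *ndhA*, *ndhI*, *ndhG*, *ndhE*, *ndhD*, *ndhF* and both copies of *ndhB*. That library was also highest for 62 of the 88 plastid genes other than those for tRNAs. *ndhI* (ATCG01090), for an iron-sulphur subunit, was listed at 17.9 and 48.7 FPKM in the wild type, against 22.5 and 19.5 FPKM in the mutant (log2 difference -0.48 ± 0.49 SE; limma, adjusted p = 0.860). Without Col-0 replicate 2 it was 0.22.

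Of the 4 subunits of the plastid-encoded RNA polymerase, *rpoB*, *rpoC1* and *rpoC2* stood among the lowest values. *rpoB* (ATCG00190) was listed at 4.62 and 6.93 FPKM (wild type) and at 3.77 and 4.0 FPKM (*ect2*), without overlap, and had the largest difference, -0.45 ± 0.26 (SE; limma, adjusted p = 0.842). Without Col-0 replicate 2 it was -0.20 and without Col-0 replicate 1 it was -0.70. *rpoC1* (4.50, 9.53, 4.66 and 5.81 FPKM) and *rpoC2* (2.28, 4.46, 2.34 and 2.75 FPKM), which follow it in an operon, overlapped. *rpoA* (ATCG00740), for the alpha subunit, lies among ribosomal genes and was higher, at 52.4, 70.6, 87.9 and 35.4 FPKM. It was highest in *ect2* replicate 1.

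Of the 25 ribosomal protein genes, 5 (20.0%) were lower in both mutant libraries, a share like the 20.2% of all tested genes, and the other 20 overlapped. *rpl20* (ATCG00660; Pltd:68512-68865, minus strand), for a protein of the large subunit, had the smallest p of any plastid gene. It was listed at 50.1 and 32.7 FPKM in wild-type seedlings, while *ect2* had 17.9 and 12.3 FPKM, with means of 41.4 ± 12.3 and 15.1 ± 3.98 FPKM (SD, n = 2 per genotype). The mutant values were all below the wild-type ones, and the log2 difference of -1.39 ± 0.32 (SE) did not pass (limma, adjusted p = 0.842). It remained between -1.69 and -1.09 with any 1 library left out. *rpl33* (ATCG00640) had the same order, with 1002 and 515 FPKM in the wild type, against 416 and 278 FPKM in the mutant (log2 difference -1.08 ± 0.40 SE; limma, adjusted p = 0.842).

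Of the small subunit, *rps14* (ATCG00330), which lies beside *psaB* and *psaA*, was listed at 1259 and 1368 FPKM (wild type) and at 906 and 648 FPKM (*ect2*). These values do not overlap either (log2 difference -0.78 ± 0.26 SE; limma, adjusted p = 0.842), and the difference was between -1.02 and -0.53 with any 1 library left out. *rps16* (ATCG00050) had the largest negative difference of the small subunit, -1.08 ± 0.61 (SE; limma, adjusted p = 0.842), through 1 library: 25.5, 16.1 and 16.7 FPKM stood beside 4.70 FPKM in *ect2* replicate 2. It was -0.26 without that library and -1.90 without *ect2* replicate 1. *rps18* and *rps4* were also without overlap, both lower in *ect2*. *rpl16* (ATCG00790) was listed at 279 and 401 FPKM in wild-type seedlings, while *ect2* had 636 and 234 FPKM, the highest and lowest value both in the mutant, with a log2 difference of 0.20 ± 0.53 (SE; limma, adjusted p = 0.949). *rpl32* (ATCG01020), the highest of the large subunit, was listed at 2035, 2351, 2972 and 717 FPKM. The largest positive difference of the small subunit, 0.27, was in a copy of *rps7* (ATCG01240) at 56.0, 160, 175 and 74.7 FPKM, again with overlap. ATCG00800, without a symbol, was listed at 84.6, 160, 133 and 101.3 FPKM and had a log2 difference of -0.0028.

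Of the 13 genes with other roles, 12 had negative differences, with a median of -0.29. They include *matK* (a splicing factor for plastid introns; 30.5, 41.2, 31.9 and 26.2 FPKM), *accD* (a subunit of acetyl-CoA carboxylase; 4.37, 6.88, 5.42 and 4.43 FPKM) and *clpP* (the plastid protease subunit; 61.3, 52.3, 79.1 and 32.3 FPKM). *ycf3* and *ycf4*, assembly factors of photosystem I, stood at 34.1, 48.9, 33.1 and 16.0 FPKM and at 29.6, 59.9, 35.9 and 32.5 FPKM. Of these 5, *ycf3* alone had no overlap (log2 difference -0.80 ± 0.40 SE; limma, adjusted p = 0.842).

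Genes in the inverted repeat exist as a pair of copies, whose reads cannot be assigned to one of them with certainty. The second copy was 0.843 to 1.16 times the first for *ndhB*, 0.991 to 1.06 times for *rpl2*, 0.906 to 1.18 times for *rpl23*, 0.877 to 1.10 times for *rps7* and 0.940 to 1.22 times for *ycf2*. For the small reading frame *ycf15* the listed values of the copies lay further apart, and the assignment of reads is uncertain here too. ATCG00870 was listed at 9.88 and 12.8 FPKM in the wild type, against 12.8 and 15.4 FPKM in the mutant, both mutant libraries above. ATCG01270 was listed at 17.3 and 27.4 FPKM (wild type) and at 10.3 and 11.5 FPKM (*ect2*), both below. The sums of the copies, 27.2, 40.2, 23.1 and 26.9 FPKM, do not overlap either, the closest values of the genotypes being 27.2 and 26.9 FPKM. The copies' ratios of 1.75, 2.14, 0.800 and 0.750 equal 7/4, 15/7, 4/5 and 3/4 within a relative tolerance of 0.0001. Such small whole numbers may reflect few fragments per copy, which was not tested. The opposite directions of the copies are therefore uncertain.

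Of 37 tRNA genes, 32 were listed at 0 in all 4 libraries. A listed 0 may be a failed estimate. Of the other 5, *trnY* (ATCG00240) was highest, at 14271 and 11493 FPKM in wild-type seedlings, while *ect2* had 13464 and 2363 FPKM. *trnS.2* (ATCG00290), listed at 1890 and 2274 FPKM in the wild type, against 2933 and 3892 FPKM in the mutant, was the only tested plastid tRNA gene without overlap (log2 difference 0.70 ± 0.26 SE; limma, adjusted p = 0.842). *trnS.1* stood at 3182, 11074, 5997 and 11008 FPKM. *trnS.3* was listed at 3150 FPKM and 0 in the wild type, against 1662 and 1146 FPKM in the mutant, and its fitted difference, the largest of all plastid genes, and its call without Col-0 replicate 1 rest on this 0. *trnL.1* was listed at 1826 FPKM in *ect2* replicate 2 and at 0 elsewhere. Genes of this length carry high FPKM on few reads, so these values are uncertain.

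Neighbouring genes had closer log2 differences and log2 ratios between libraries than pairs of plastid genes at large. Their levels were not compared in this way. Genes on 1 strand with gaps of at most 300 bases formed 31 pairs of direct neighbours. The log2 differences between genotypes within such pairs were apart by a median of 0.22, against 0.36 over all 2415 pairs of the 70 genes with a single position. For the log2 ratio of the 2 Col-0 libraries, these medians were 0.25 and 0.67, and for that of the 2 *ect2* libraries 0.29 and 0.59. Neighbours share transcripts and in part reads, so they are not independent. The run *ndhI*-*ndhA*-*ndhH*-*rps15* had Col-0 ratios between 1.31 and 1.47, and *petL*-*petG* had Col-0 ratios of -0.83 and -1.43. The last pair begins a stretch that goes on with *psaJ*, *rpl33*, *rps18* and, on the other strand, *rpl20* (Pltd:65712-68865). These 6 genes were all highest in Col-0 replicate 1, and *trnW* and *trnP*, which lie among them, were listed at 0. The stretch was picked after its values were seen.

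Nuclear genes for the same complexes had other medians between libraries. The 10 nuclear photosystem I genes had a median log2 ratio of 0.14 between Col-0 replicate 2 and replicate 1, and the 9 of photosystem II one of -0.023. The 9 genes for cytochrome b6f, ATP synthase and Rubisco had -0.58. In *ect2* the corresponding medians were 0.26, 0.17 and 0.42, positive where the plastid median was negative. *RBCS1A* (AT1G67090), for the small subunit of Rubisco, was listed at 15700 and 10477 FPKM (wild type) and at 8790 and 11817 FPKM (*ect2*), the reverse order of *rbcL* within each genotype.

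Between genotypes, limma called 0 of the 55 nuclear genes of these and the following lists. The 4 nuclear NDH genes had negative differences throughout, with a median of -0.57. The largest was in *NDHM* (AT4G37925; 94.2, 54.4, 39.2 and 54.2 FPKM). *NDHL* (AT1G70760; 144, 112, 77.2 and 87.8 FPKM) had no overlap, with a log2 difference of -0.62 ± 0.24 (SE; limma, adjusted p = 0.842). *NDHM* had none either, its closest values being 54.4 and 54.2 FPKM. The 8 genes for plastid transcription, the sigma factors and the phage-type polymerases, had a median of -0.15. *SIG2* (AT1G08540) had the largest negative difference, -0.47, and *SIG3* (AT3G53920) the largest positive one, 0.28. The 15 genes for plastid RNA processing and decay had a median of -0.16, from *PPR10* (AT2G18940) at -0.46 to *HCF107* (AT3G17040) at 0.24. *PNP* (AT3G03710), for the polynucleotide phosphorylase that trims and degrades plastid RNA, was listed at 13.6 and 10.4 FPKM in wild-type seedlings, while *ect2* had 11.2 and 10.7 FPKM, which overlap.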

How the data were processed

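Polyadenylated RNA of whole seedlings was measured in 2 libraries of Col-0 and 2 of *ect2*, grouped by sample title. Per the labels' protocols, RNA was extracted with TRIzol, selected on oligo(dT) beads and made into libraries with NEBNext Ultra reagents. The submitters' processing notes name cutadapt, TopHat and TAIR10, without versions and with no quantifier. Each library has its own table, deposited by the authors, whose unit is taken to be FPKM from the identifier column of the file headers and from the values. Any scaling between libraries is not stated.

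Genes reaching 1 FPKM in 2 or more libraries were tested on log2(FPKM + 1), a scale that understates changes of low genes, with limma 3.58.1 in R 4.3.3 (trend, robust, two-sided), adjusted by Benjamini-Hochberg over all 19308 genes at 0.05. The procedure was run on simulated data in which genes varied independently. That check does not cover genes that shift together by library. Shares were compared by exact permutation. Roles follow symbol prefixes, except that *ndhK*, *psbZ*, *petL* and *petN* are listed under older names and were placed by role. Symbols matched 80 of 88 genes to a RefSeq TAIR10.1 coding length and 70 to a single position, and the deposited tables hold no coordinates. Within each role the genes of highest level and of largest difference in each direction were named, with *psbA*, *rbcL* and the repeated genes. Others without overlap, or beside these, were named after their values were seen. The members and lists were chosen with earlier results of these data known. Alternatives were a replicate block, left-out libraries, pseudocounts of 0.1 and 5, other filters, TMM, quantile and nuclear-total scaling, and limma without trend. Equal nuclear medians and the removal of *psbM*, AT2G01021 or short genes were added after seeing the data.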

Additional observations from a re-analysis of the deposited data

How the results depend on the processing

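Read counts are not given, so depth limits are unknown, and values of very short genes are the least certain. No setting that kept all 4 libraries called a plastid gene, and the median of the plastid genes stayed between -0.26 and -0.15 in them. With genes at 1 FPKM or more in all 4 libraries, limma called 0 genes overall (885 at an unadjusted p below 0.05), and with equal totals over nuclear genes 174. Equal medians over nuclear genes gave 5 calls. The nuclear totals include AT2G01021, which held between 23.8% and 36.8% of all FPKM in a library. The part of that locus in the 174 calls was not tested. With 1 library left out, the count over all genes was 0 to 520, that of plastid genes 0 to 4, their median -0.58 to 0.19, and the difference in plastid share -1.29 to 8.72 percentage points, which was -0.68 without *psbM*. The replicate numbers are not shown to pair libraries: the replicate differences of the genotypes correlated at 0.014 over 19308 genes and at 0.21 over the 92 plastid genes. A replicate block gave 6 calls overall and 0 among plastid genes.

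The log2 difference of ATCG00800, -0.0028, was 0.0093 with TMM, 0.043 with quantile normalization and 0.027 with equal nuclear totals. That of *psbM* was 0 with quantile normalization, which was fixed in advance. The method gives equal ranks equal values, and *psbM* ranked second in every library, so this 0 says nothing about its level. Such ranges were taken only for the genes named by level, by largest difference or in advance, and not for others such as *psbL*, *psbF* and *psbD*. With 1 library left out, these genes changed sign, within the ranges given: ATCG00800 (-0.46 to 0.45), *psbA* (-0.45 to 1.07), *petN* (-1.28 to 0.17), *psbM* (-0.0019 to 1.94), *trnY* (-2.44 to 0.072), *trnS.3* (-1.19 to 10.4), *ndhJ* (-0.57 to 1.14), *ndhC* (-0.29 to 0.55), *rbcL* (-0.33 to 0.57), *clpP* (-0.79 to 0.48), *psbT* (-0.26 to 2.59), *rpoA* (-0.76 to 0.52), *rpl16* (-0.52 to 0.92), *rpl32* (-1.61 to 0.44), *psaC* (-0.34 to 0.53), *ndhI* (-1.18 to 0.22) and *rps7.2* (-0.48 to 1.02). The cause was not tested.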
